A study of Bos taurus with 8 samples.

Results

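Pericytes and smooth muscle cells are the mural cells of blood vessels, and 10 genes that mark them were followed in the bovine corpus luteum (CL): ACTA2, MYH11, TAGLN, CNN1, DES, MYLK, RGS5, PDGFRB, MCAM and CSPG4. Every row of the table whose symbol equalled one of these, ignoring case, was taken, which found 9 of the 10 among 13861 genes, each on 1 row. ACTA2, which encodes smooth muscle alpha-actin, was on no row under that symbol, so it has no value of its own here.

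The CL came from 8 Holstein heifers, 4 of them bred and found to be pregnant (P1, P2, P4 and P5) and 4 unbred and in the estrous cycle (C1, C2, C3 and C4). Both groups were slaughtered on day 17 after estrus, when luteal rescue separates a CL that will be kept from one that will regress, and no other treatment was given to either group. Each library was made from the total RNA of the CL of 1 heifer, so it mixes all of the cell types of the gland, and fewer mural cells cannot be told apart from less RNA per mural cell. Depth was even, with 43654655 to 48294165 reads in CL of pregnancy and 42770725 to 47076454 reads in CL of the estrous cycle.

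Background to these genes is as follows. Pericytes sit on capillaries and smooth muscle cells wrap arterioles and larger vessels, where they steady the vessel wall and set blood flow. Endothelial cells recruit them by releasing PDGF-B, which binds the receptor encoded by PDGFRB. Contraction is driven by smooth muscle myosin once myosin light chain kinase, the product of MYLK, has phosphorylated it, and transcription of the contractile genes depends in many mammals on serum response factor (SRF) with myocardin. The CL is among the most densely vascularized tissues of the body, and pericytes make up a large part of its proliferating cells while it develops.

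None of the 9 measured genes passed the test of a difference between CL of pregnancy and of the estrous cycle. Values were normalized counts, which are reads divided by a factor for each CL, and each gene was tested with limma on log2(normalized count + 1), with a threshold of 0.05 for the p adjusted over all genes. In that test 0 of 9 passed, beside 0.0216% of all genes (3 of 13861, with 0.0144% higher and 0.00721% lower in pregnancy), and 0 of 9 passed in edgeR or DESeq2 on the recovered reads, beside 0.00721% and 0.685% of all genes. At an unadjusted p under 0.05, 1 of 9 was found, DES, beside 7.51% of all genes. It was higher in pregnancy, beside 3.66% of all genes, and 0 of 9 were lower, beside 3.85%. In 0 of 9 did the values of the groups separate without overlap, beside 4.3% of all genes. The fold change was above 0 on the log2 scale for 5 of 9 genes, beside 50.1% of all genes. A count also grows with the length of a transcript, and since no lengths were at hand, levels were compared between CL and not between genes.

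**Figure D1:**
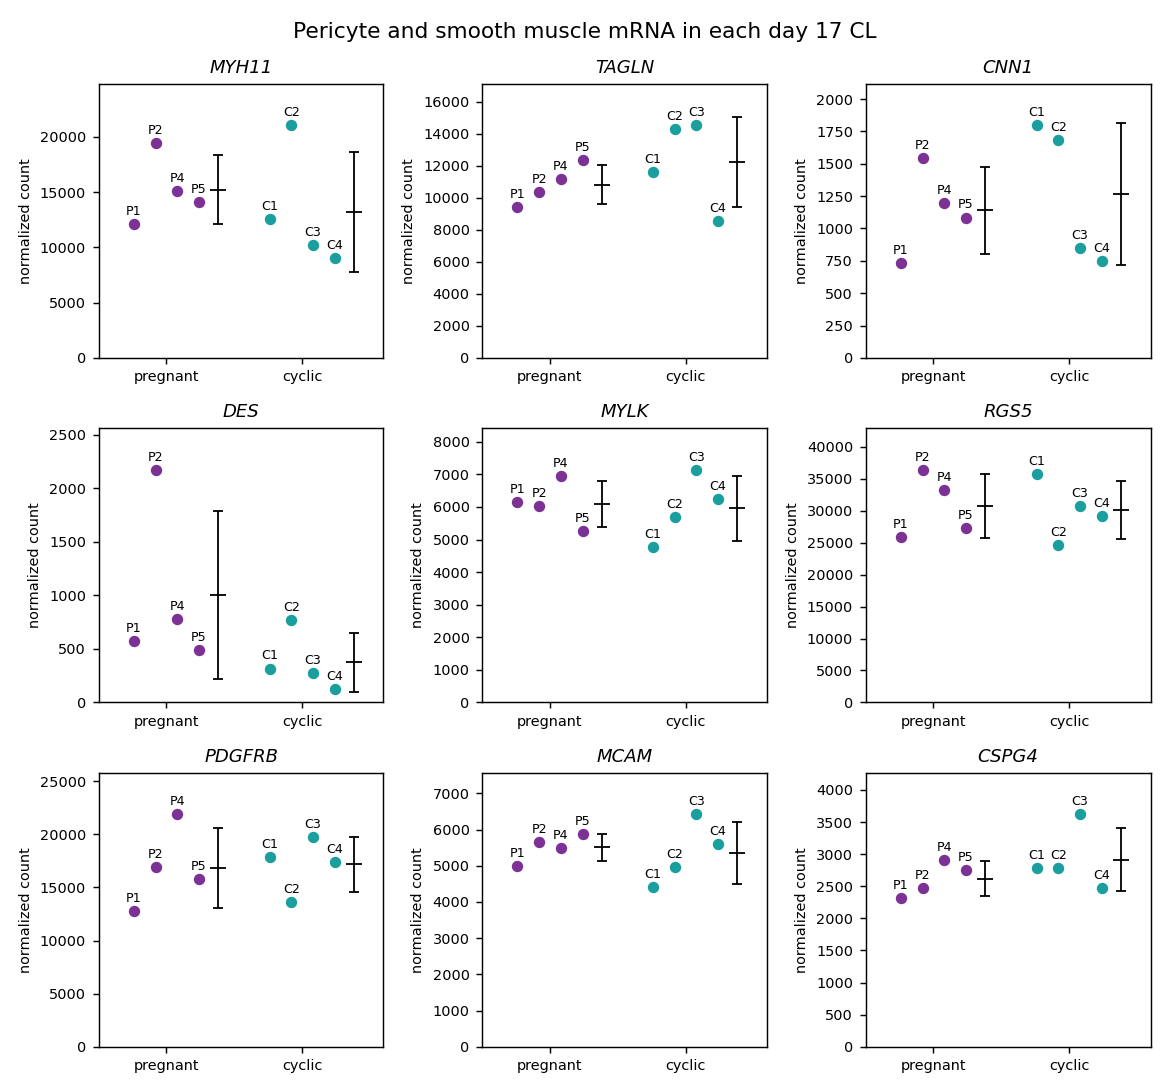
Normalized counts of the 9 measured genes in each CL, with pregnant heifers (purple) left of cyclic heifers (teal) and the mean with its SD beside each group of 4. The groups overlapped in every panel, and DES had the widest spread, between 128 and 2173.

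Among the contractile and cytoskeletal genes, the largest difference was in DES (ENSBTAG00000005353), which encodes desmin, the intermediate filament that ties contractile units together in muscle cells. DES had 577, 2173, 782 and 493 normalized counts in P1, P2, P4 and P5, against 316, 774, 276 and 128 in C1, C2, C3 and C4. P2 and P4 were above all CL of the estrous cycle, and C1, C3 and C4 were below all CL of pregnancy, while C2 lay within the range of pregnancy. DES averaged 1006 ± 786.9 in CL of pregnancy and 373 ± 279 in CL of the estrous cycle (SD, n = 4 each). In limma the log2 fold change was 1.45 with an SE of 0.57, which is 2.73-fold with a 95% interval of 1.14 to 6.57, at an unadjusted p of 0.0289 and an adjusted p of 0.622 in limma. Adjusted p was 0.473 in DESeq2 and 0.590 in edgeR. Leaving out P2 gave a log2 fold change of 0.99 (limma unadjusted p = 0.0827), and leaving out C2 gave 1.90 (limma unadjusted p = 0.0049, adjusted p = 0.483). Without C1, C3 or C4 the limma unadjusted p was also above 0.05, at 0.0511, 0.058 and 0.0826. The counts behind DES ran between 130 and 2183 reads in a CL.

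MYH11 (ENSBTAG00000015988) encodes the smooth muscle myosin heavy chain, the motor of contraction in differentiated smooth muscle cells. MYH11 had 12127, 19489, 15104 and 14131 normalized counts in P1, P2, P4 and P5, against 12577, 21041, 10221 and 9016 in C1, C2, C3 and C4. C2 was the highest of all 8 CL and C4 and C3 were the lowest, so the CL of the estrous cycle spanned the whole range of pregnancy. MYH11 averaged 15213 ± 3109 in CL of pregnancy and 13214 ± 5424 in CL of the estrous cycle (SD, n = 4 each). The log2 fold change was 0.26 with an SE of 0.25 (limma adjusted p = 0.819), and with 1 CL left out in turn it ran from 0.105 without C4 (limma unadjusted p = 0.676) to 0.51 without C2 (limma unadjusted p = 0.0150, adjusted p = 0.564). Without P2 it was 0.14 and without C3 it was 0.17.

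TAGLN (ENSBTAG00000007196) encodes transgelin, an actin-binding protein that appears early in smooth muscle differentiation. It had 9409.9, 10379, 11157 and 12349.9 normalized counts in P1, P2, P4 and P5, against 11606, 14293, 14516 and 8550.0 in C1 to C4. C2 and C3 were above all CL of pregnancy, while C4 was below them. The means of 10824 ± 1243 in pregnancy and 12241 ± 2794 in the estrous cycle (SD, n = 4 each) gave a log2 fold change of -0.15 with an SE of 0.17 (limma adjusted p = 0.841). With 1 CL left out in turn it ran from -0.32 without C4 (limma unadjusted p = 0.0320) to -0.06 without C3 (limma unadjusted p = 0.730), with adjusted p of 0.587 to 0.961. It was -0.07 without C2 and -0.09 without P1.

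CNN1 (ENSBTAG00000011207) encodes calponin 1, which binds actin and damps the ATPase of myosin. CNN1 had 735, 1545, 1196 and 1084 normalized counts in the CL of pregnancy, against 1796, 1682, 846 and 749 in the CL of the estrous cycle. C1 and C2 were the highest of all CL, C3 and C4 were among the lowest 3, and P1 was the lowest. The log2 fold change of -0.09 had an SE of 0.32 (limma adjusted p = 0.962), and its sign changed when P1, C1 or C2 was left out.

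MYLK (ENSBTAG00000014567) encodes the myosin light chain kinase named above. It had 6142, 6018, 6957 and 5259 normalized counts in P1, P2, P4 and P5, against 4762, 5706, 7137 and 6246 in C1 to C4. The values of the groups interleaved, and the log2 fold change was 0.04 with an SE of 0.13 and a fold interval from 0.838 to 1.26 (limma adjusted p = 0.960). A further row, LOC100850955, carries a predicted gene described as similar to the smooth muscle myosin light chain kinase and may share reads with MYLK, so the level of MYLK alone is uncertain. LOC100850955 had 7734, 5114, 6863 and 8475 normalized counts in pregnancy, against 6499, 12033, 8787 and 7349 in the estrous cycle, with C2 highest. Its log2 fold change was -0.28 with an SE of 0.21 (limma adjusted p = 0.758), and a sum of both rows, which was added once the data had been seen, gave -0.14 (limma adjusted p = 0.832).

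With ACTA2 on no row, the row that carries the symbol ACTG2 (ENSBTAG00000014614), the gamma-actin of enteric smooth muscle, was read beside the listed genes. Whether its reads came from ACTG2, ACTA2 or both could not be settled. The row had 2803, 5897, 3926 and 3482 normalized counts in the CL of pregnancy, against 2734, 3999.7, 3819 and 2203 in the CL of the estrous cycle. P2 was the highest and C4 the lowest, as in DES, and the log2 fold change was 0.32 with an SE of 0.25 (limma adjusted p = 0.769). Actin genes are closely related, and the counting may have split or shared their reads.

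Of the genes that act at the cell surface or in signaling, RGS5 (ENSBTAG00000016341) encodes a regulator of G protein signaling that shortens the response to vasoconstrictors and is a widely used pericyte marker. RGS5 had 25869, 36394, 33312 and 27375 normalized counts in P1, P2, P4 and P5, against 35720.2, 24616.5, 30794 and 29210.4 in C1 to C4. The highest and the second highest CL, P2 and C1, came from different groups, as did the lowest and the next, C2 and P1. The log2 fold change was 0.03 with an SE of 0.14, and the fold interval ran from 0.818 to 1.27 (limma adjusted p = 0.974).

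PDGFRB (ENSBTAG00000002804) encodes the receptor through which PDGF-B recruits pericytes, and fibroblasts carry it too. It had 12781, 16959, 21873 and 15799 normalized counts in the CL of pregnancy, against 17914, 13633, 19742 and 17423 in the CL of the estrous cycle. P4 was the highest and P1 the lowest, so the CL of pregnancy spanned the whole range of the estrous cycle. The log2 fold change was -0.04 with an SE of 0.17, and the fold interval ran from 0.751 to 1.26 (limma adjusted p = 0.968).

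MCAM (ENSBTAG00000006835) encodes the adhesion molecule CD146 of pericytes, smooth muscle and endothelial cells. MCAM had 5000.4, 5659.8, 5493 and 5879.9 normalized counts in P1, P2, P4 and P5, against 4413, 4967.5, 6416 and 5595 in C1 to C4. The CL of pregnancy lay inside the range of the estrous cycle, and the fold interval ran from 0.865 to 1.25 around a log2 fold change of 0.05 with an SE of 0.12 (limma adjusted p = 0.928).

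CSPG4 (ENSBTAG00000012219) encodes the proteoglycan NG2, found on pericytes of growing vessels. CSPG4 had 2322, 2479, 2915 and 2757 normalized counts in the CL of pregnancy, against 2785, 2777, 3617 and 2470.2 in the CL of the estrous cycle. C3 stood above the other 7 CL and P1 was the lowest. Its log2 fold change was -0.15 with an SE of 0.13 and a fold interval from 0.742 to 1.10 (limma adjusted p = 0.805). Without C3 it was -0.04, without P1 -0.09 and without C4 -0.22, with limma unadjusted p of 0.130 to 0.756 over the CL left out in turn.

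**Figure D2:**
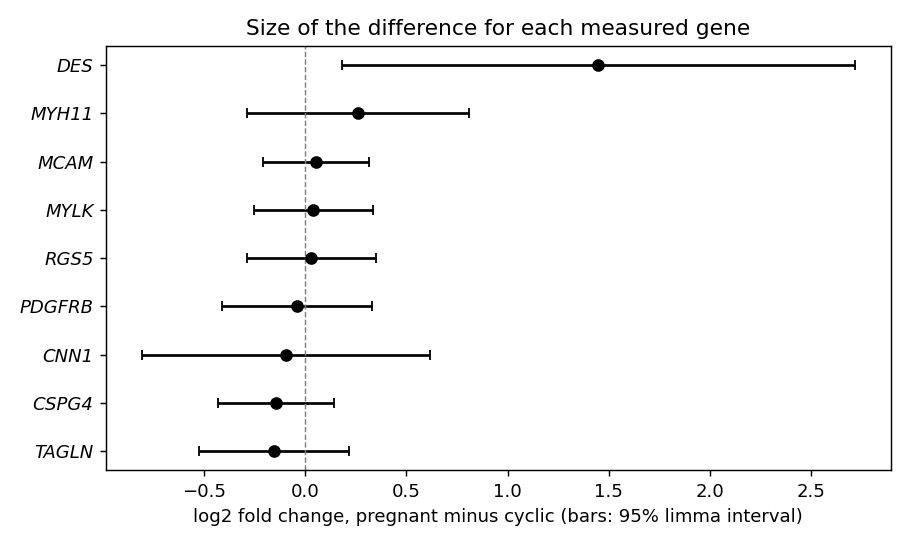
Log2 fold change of each measured gene, pregnant minus cyclic, with its 95% limma interval, in order of size. The interval of DES ran from 0.18 to 2.72 and that of each other gene held 0. MCAM had the narrowest interval, from -0.21 to 0.32.

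The intervals show what these CL could resolve. For the 4 surface and signaling genes and for MYLK the fold intervals lay between 0.742 and 1.27, so larger differences in their mean levels fall outside of the intervals. For CNN1 the interval ran from 0.572 to 1.54, so moderate differences in either direction could not be resolved with 4 CL in each group. For MYH11 it ran from 0.820 to 1.76, so a moderate increase in pregnancy could not be resolved.

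The spread among CL of the same group differed widely between the genes. The SD within groups on the log2 scale was 1.01 for DES, 0.56 for CNN1 and 0.43 for MYH11, against 0.28 for TAGLN and PDGFRB and 0.18 to 0.23 for RGS5, MYLK, CSPG4 and MCAM. The median was 0.26 over all genes and 0.21 over the 11137 genes with a mean of at least 50 normalized counts. Among the more abundant genes, DES stood at percentile 97.8, CNN1 at 90.5 and MYH11 at 83.7, while RGS5 stood at 54.0 and MCAM at 38.9. From its lowest to its highest CL, DES varied 17.0-fold and MYH11 2.33-fold. Thus DES, CNN1 and MYH11 varied more between heifers than TAGLN, MYLK, RGS5, PDGFRB, MCAM and CSPG4, which is given as a description with no test.

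**Figure D3:**
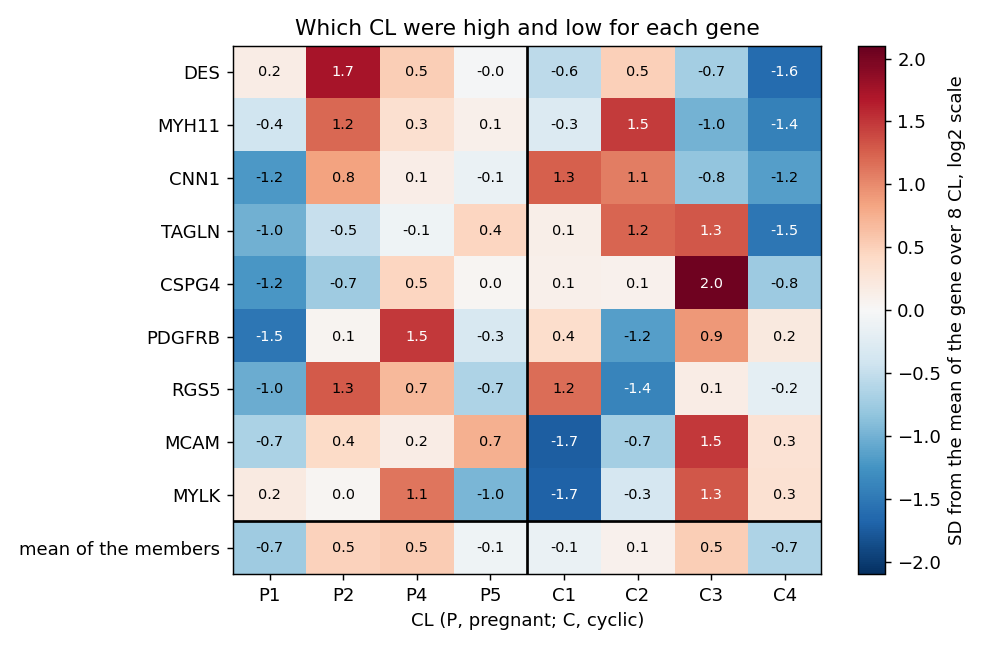
Distance of each CL from the mean of the gene over the 8 CL, in SD on the log2 scale, with the 4 CL of pregnancy left of the 4 CL of the estrous cycle and the mean of the 9 genes in the bottom row. P1 and C4 were low on average (-0.75 and -0.65), and P4, C3 and P2 were high (0.53, 0.52 and 0.48).

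No CL was high or low for all 9 genes. P1 was among the lowest 2 CL for 5 genes and so was C4, 1 from each group. C3 was the highest CL for 4 genes (TAGLN, MYLK, MCAM and CSPG4) yet among the lowest 2 for DES. C2 was the highest CL for MYH11 and the lowest for RGS5.

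The 9 genes did not vary as 1 block. Over the 36 pairs of genes, Pearson's r across the 8 CL was above 0 in 22 and below 0 in 14, with a median of 0.12. By exact two-sided permutation over 40320 pairings, 4 pairs had an unadjusted p under 0.05 and 0 pairs passed after adjustment over the 36, where the smallest adjusted p was 0.155. These 4 pairs are described because their unadjusted p was lowest. A group holds only 4 CL, too few for a correlation within it, so r was also computed on deviations from the group means.

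The closest pair was DES with MYH11, at r = 0.87 (exact permutation p = 0.0043, adjusted p = 0.155) and rho = 0.86 (exact permutation p = 0.0107). C4 was lowest and P2 and C2 among the highest 3 for both genes. Without C4 and C2, the CL farthest from the median of MYH11, r was 0.93, and on deviations from group means it was 0.91. MYH11 with CNN1 had r = 0.75 (exact permutation p = 0.0356, adjusted p = 0.411) and rho = 0.69 (exact permutation p = 0.0694), and r = 0.56 without C4 and C2.

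TAGLN varied with CSPG4 at r = 0.79 (exact permutation p = 0.0161, adjusted p = 0.289) and rho = 0.76 (exact permutation p = 0.0368), with r = 0.71 without C3 and C4. RGS5 varied with PDGFRB, the pericyte pair, at r = 0.72 (exact permutation p = 0.0456, adjusted p = 0.411) and rho = 0.67 (exact permutation p = 0.0831), with r = 0.77 without P2 and C2. At the other end, CNN1 had r = -0.55 with MYLK and -0.50 with MCAM, neither of which passed the test (exact permutation p = 0.160 and 0.211). MYLK with MCAM had r = 0.66 (exact permutation p = 0.0765), which rested on C1 and C3, since without them r was -0.15.

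**Figure D4:**
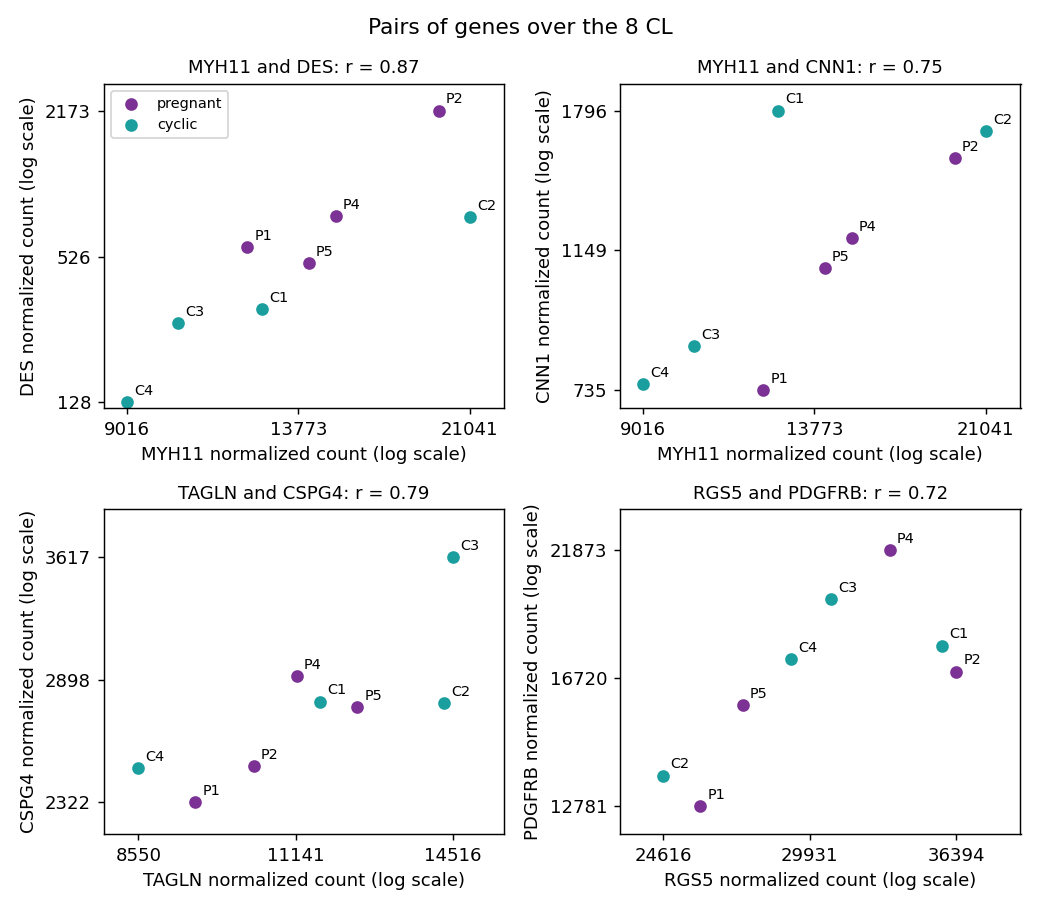
The 4 pairs of genes with the lowest unadjusted p, as normalized counts on log axes, 1 point for each CL (purple for pregnant, teal for cyclic). For DES against MYH11, C4 was lowest for both genes. At similar levels of MYH11, DES was higher in P1 than in C1 and higher in P2 than in C2.

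By Pearson's r over the 8 CL with the mean of the 9 standardized genes, the genes with a symbol and a mean of at least 50 most like it were RELA (0.94), a subunit of NF-kappa B, RBM19 (0.93), EVI5L (0.93), LTBP3 (0.92), which binds latent TGF-beta, and ANXA6 (0.90), a calcium-dependent membrane protein. The search covered the 11137 genes with a mean of at least 50, less the 9 genes themselves and rows with no symbol or a LOC symbol. These genes were picked as the closest over 8 points, so high values arise by the choice itself and no p is given.

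Other genes of the same cells were then read as lists. Of 37 genes of the smooth muscle contractile apparatus beyond the 10, 35 were measured and 0 passed the limma test, with 16 above 0 and 19 below and a median log2 fold change of -0.01 (median over all genes 0.00). Among abundant genes of the list, the log2 fold change was 0.04 for MYL9, a regulatory light chain, 0.12 for TPM2, a tropomyosin, 0.36 for HSPB6, a small heat shock protein of muscle, and -0.29 for CSRP1, a LIM domain protein, and none of these passed. The lowest unadjusted p was that of SYNM, which encodes synemin, a filament protein that copolymerizes with desmin. SYNM had 1774.5, 2051, 1761 and 1746.5 normalized counts in P1, P2, P4 and P5, against 1267.5, 1383, 1556 and 1365 in C1 to C4. All CL of pregnancy were above all CL of the estrous cycle, at a log2 fold change of 0.40 with an SE of 0.10 (limma adjusted p = 0.485, DESeq2 adjusted p = 0.0420).

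KCNMB1, which encodes the beta subunit of the large conductance calcium-activated potassium channel of smooth muscle, had 247, 245, 276 and 281 normalized counts in the CL of pregnancy, against 196, 202, 182 and 198 in the CL of the estrous cycle. Here too the groups did not overlap, beside 2.03% of all genes that were higher in pregnancy without overlap. KCNMB1 had a log2 fold change of 0.43 with an SE of 0.15 (limma adjusted p = 0.594). CNN2, a calponin that is also made outside of muscle, ran the other way, with 2329 to 2699 normalized counts in pregnancy and 2723 to 3226 in the estrous cycle. These groups did not overlap either, beside 2.27% of all genes that were lower in pregnancy without overlap. CNN2 had a log2 fold change of -0.27 with an SE of 0.09 (limma adjusted p = 0.588).

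Of 21 regulators around SRF and myocardin, 17 were measured and 0 passed the limma test, with 10 above 0 and 7 below and a median of 0.05. HEYL, a transcriptional repressor that Notch induces in mural cells, had 3798.5, 3471, 3917 and 4044 normalized counts in P1, P2, P4 and P5, against 6711, 4718, 7106 and 6175 in C1 to C4. Every CL of pregnancy was below every CL of the estrous cycle, beside 2.27% of all genes that were lower in pregnancy without overlap. HEYL had a log2 fold change of -0.68 with an SE of 0.13 (limma adjusted p = 0.349, DESeq2 adjusted p = 0.000969). SRF itself had a log2 fold change of -0.39 with an SE of 0.16 and groups that overlapped (limma adjusted p = 0.629), and VGLL3, a cofactor of TEAD factors, had 0.59 with an SE of 0.20 (limma adjusted p = 0.588). MYOCD, which encodes myocardin, was near the limit of detection. It had the smallest value, taken as 1 read, in C4 and between 2.15 and 14.5 normalized counts in the other CL.

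In the list of other pericyte markers, 20 of 25 were measured and 0 passed the limma test. Of these, 2 had a log2 fold change above 0 and 18 below, with a median of -0.25, beside 50.1% of all genes above 0. Their summed level was 28464 to 33383 normalized counts in CL of pregnancy and 36906 to 41650 in CL of the estrous cycle, without overlap. Between 43.8 and 57.5% of that sum came from ADAMTS1, a protease, and THY1, a surface protein, which other cells of the CL also make. Without both genes, a choice made after seeing the data, the sums overlapped, at 14477 to 17895 normalized counts in pregnancy and 17683 to 21917 in the estrous cycle, and the median over the 18 genes was -0.24. The summed surface and signaling genes of the main list, in contrast, had 45972 to 63594 normalized counts in pregnancy and 45994 to 60832 in the estrous cycle. Most of that sum came from RGS5 and PDGFRB. The summed contractile genes had 28991 to 39604 in pregnancy and 24688 to 43496 in the estrous cycle, mostly from MYH11 and TAGLN.

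GUCY1B3 had the lowest unadjusted p of the pericyte list and was singled out after its values were seen. It encodes the beta subunit of soluble guanylate cyclase, through which nitric oxide relaxes mural cells. GUCY1B3 had 2572, 2846, 3189.5 and 2985 normalized counts in P1, P2, P4 and P5, against 4435, 3683, 4181 and 3477 in C1 to C4. The groups did not overlap, and the log2 fold change was -0.44 with an SE of 0.11 (limma adjusted p = 0.485, DESeq2 adjusted p = 0.0358). GJC1, a connexin, was the other pericyte marker without overlap, at 591 to 714 normalized counts in pregnancy and 757 to 826 in the estrous cycle (log2 fold change -0.24, SE 0.11, limma adjusted p = 0.661). That makes 2 of the 20 measured markers of this list lower without overlap, beside 2.27% of all genes. GUCY1A3, the partner of GUCY1B3, overlapped, at a log2 fold change of -0.14 with an SE of 0.21 (limma adjusted p = 0.893), and so did KCNJ8, a potassium channel of pericytes, at -0.01 with an SE of 0.12 (limma adjusted p = 0.997).

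**Figure D5:**
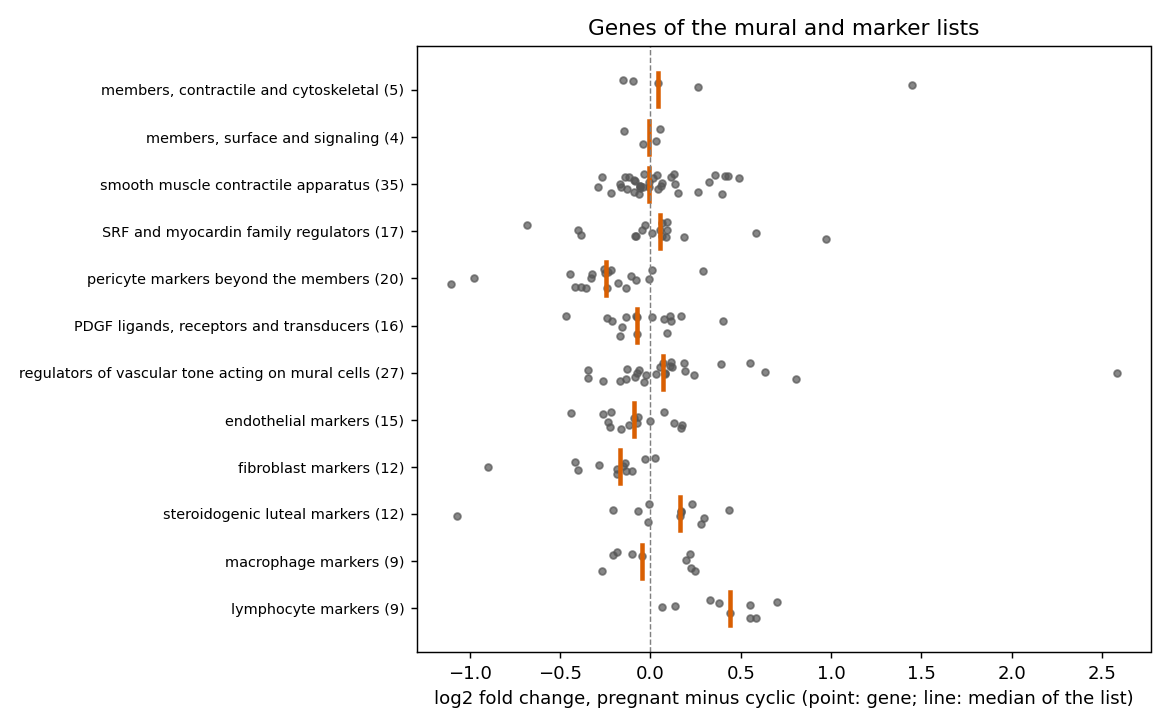
Log2 fold change, pregnant minus cyclic, of every measured gene in each list (points, number of genes in brackets) with the median of the list (orange line). The pericyte markers beyond the 10 genes lay mostly below 0, with a median of -0.25. So did the fibroblast (median -0.17) and endothelial markers (-0.09), while the contractile list had a median of -0.01.

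Of 17 genes of PDGF signaling 16 were measured and 0 passed, with 7 above 0 and 9 below and a median of -0.07, whose sign turned without P1 (0.015). PDGFB, the ligand of PDGFRB, had a log2 fold change of -0.21 with an SE of 0.23. The lowest unadjusted p values were those of PIK3R1, a subunit of phosphatidylinositol 3-kinase (0.40, SE 0.21), SOS1, an activator of Ras (-0.24, SE 0.16), and PTPN11, a phosphatase (0.17, SE 0.13), each given as a log2 fold change with limma adjusted p of 0.684 to 0.780 and overlap between the groups.

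Of 28 regulators of vascular tone that act on mural cells 27 were measured and 0 passed, with 16 above 0 and 11 below and a median of 0.07. CACNA1C, the pore of the voltage-gated calcium channel that starts contraction, had 438, 381, 477 and 377 normalized counts in P1, P2, P4 and P5, against 359, 292, 368 and 265 in C1 to C4. The groups did not overlap, beside 2.03% of all genes that were higher in pregnancy without overlap. The log2 fold change of CACNA1C was 0.39 with an SE of 0.16 (limma adjusted p = 0.633). TBXA2R, the receptor of the vasoconstrictor thromboxane, had a log2 fold change of 0.55 with an SE of 0.25 and overlapped (limma adjusted p = 0.658). EDNRB, an endothelin receptor, had 370 to 414 normalized counts in pregnancy, against 429 to 531 in the estrous cycle. These groups did not overlap either, beside 2.27% of all genes that were lower in pregnancy without overlap. The log2 fold change of EDNRB was -0.35 with an SE of 0.13 (limma adjusted p = 0.614). EDNRA, the main endothelin receptor of smooth muscle, had a log2 fold change of 0.11 with an SE of 0.14.

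Markers of the other cells of the CL were read beside these results, and 0 of their genes passed the limma test. Endothelial markers (15 of 16 measured) summed to 101258 to 136886 normalized counts in pregnancy and 110198 to 134680 in the estrous cycle, with 4 of 15 above 0 and 11 below and a median log2 fold change of -0.09, and KDR and VWF were the most abundant. Fibroblast markers (12 of 12), led by COL1A1 and COL3A1, summed to 647927 to 829146 in pregnancy and 696110 to 1058389 in the estrous cycle, with 11 of 12 below 0 and a median of -0.17. Of these 12, 2 were lower in pregnancy without overlap, DPT and DCN, beside 2.27% of all genes. Their log2 fold changes were -0.90 and -0.41 (limma adjusted p = 0.485 and 0.550, DESeq2 adjusted p = 0.0329 and 0.160). Steroidogenic markers (12 of 12), led by STAR and HSD3B1, summed to 1751747 to 2507176 in pregnancy and 1685196 to 1982997 in the estrous cycle. The steroidogenic character of the tissue was plain in all 8 CL. Their median log2 fold change was 0.165, with 7 above 0 and 5 below, and about 0 with quantile normalization. INHA was the 1 marker of this list lower in pregnancy without overlap, beside 2.27% of all genes. INHA had 2301 to 3303 normalized counts in pregnancy and 4104 to 11830 in the estrous cycle. Its log2 fold change was -1.07 (limma adjusted p = 0.508, DESeq2 adjusted p = 0.0249). Macrophage markers (9 of 10, led by C1QB and C1QC) summed to 21917 to 40818 in pregnancy and 21351 to 34108 in the estrous cycle. Lymphocyte markers (9 of 10, led by CD3E and CD2) had all 9 above 0 with a median of 0.44 and summed to 2574 to 3234 in pregnancy and 1465 to 2596 in the estrous cycle. Of these 9, 1 was higher in pregnancy without overlap, CD2, beside 2.03% of all genes. CD2 had 493 to 606 normalized counts in pregnancy and 268 to 447 in the estrous cycle. At a limma unadjusted p under 0.05, 4 of 9 were higher, beside 3.66% of all genes. Every gene of the table had at least the smallest value, taken as 1 read, in each CL, so no marker could be seen at 0. MMRN2, MARCO and CD79B were not measured. The part of any of these cells in the values of the mural genes was not tested.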

How the data were processed

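Total RNA of 8 CL was sequenced strand-specifically. The deposited table holds a signal for 13861 genes, called normalized counts here, which the authors made by scaling reads with 1 factor for each CL. It also holds the authors' mean of each group, which was not used. For the aligner, genome build and annotation, the name was not given in the sources used here, so no coordinates are printed. Of all values, 99.9% could be divided by the smallest value of their CL, taken as 1 read, to give a whole number within 0.01, and reads were recovered in this way. A gene without reads that had been raised to this smallest value could not be told apart from a gene with 1 read.

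All 8 CL entered limma 3.58.1 (trend, R 4.3.3) on log2(value + 1), without filter or covariate, with Benjamini-Hochberg adjustment over all genes. A fold change on this scale understates that of low genes. As alternatives, edgeR 4.0.16 and DESeq2 1.42.0 on recovered reads, pseudocounts of 0.1 and 0.5, a minimum mean of 5, quantile normalization, a replicate block and leaving out each CL were run. Python 3.11.15, scipy 1.17.1, numpy 2.4.6, pandas 2.3.3 and matplotlib 3.10.9 were used for correlations and plots.

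Besides every gene listed, up to 3 genes of each pathway list with the lowest unadjusted p were named. So were the 2 most abundant of each marker list and the 5 genes most like the mean of the 9. MYL9, TPM2, HSPB6, CSRP1, GJC1, MYOCD, GUCY1A3, GUCY1B3, KCNJ8, PDGFB, EDNRA, ACTG2, DPT, DCN and INHA were added after their values were seen. The genes and lists were chosen with earlier results of these data known. Within groups, pairs of CL had a chi-square per degree of freedom of 67.3 to 144, far above sampling noise, so all 8 were counted as separate libraries. Each CL came from a separate heifer. No sequences were used here, so a planned description of promoter motifs was not run.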

Additional observations from a re-analysis of the deposited data

Results flagged for a closer look

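In groups of 4 CL, the distance of the highest or lowest CL from the nearest other, divided by the range of the group, was compared with Dixon's critical value of 0.829 over 88 sets of values, from the measured mural genes, other genes named and the summed lists, and 3 exceeded it. Chance gives about 1 in 20 groups. ADAMTS1, from the list of other pericyte markers, had 16460 normalized counts in C4, while the other CL of the estrous cycle had 7727 to 8741. SYNM, the partner of desmin, had 2051 in P2, which was also the highest CL for DES, while the other CL of pregnancy had 1746.5 to 1774.5. EDNRB had 429 in C1, below 527 to 531 in the other CL of the estrous cycle. None of the 9 measured mural genes exceeded it in either group, though DES, in which P2 stood above the other CL of pregnancy, was just below it at 0.828.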

How the results depend on the processing

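Of 136 values of the 9 genes under alternatives, 123 kept their direction and 13 changed it, and 0 passed the adjusted threshold of 0.05. The number of genes called was 0 in each of these, and 1 at an unadjusted p under 0.05. In DESeq2, 5 of 171 other listed genes passed (DPT, GUCY1B3, HEYL, INHA and SYNM), beside 0.685% of all genes, against 0 in limma and edgeR. With 1 CL left out, the log2 fold change ran from -0.31 to 0.11 for CNN1, -0.063 to 0.131 for MYLK, -0.063 to 0.116 for RGS5, -0.176 to 0.083 for PDGFRB and -0.034 to 0.146 for MCAM. MYH11, TAGLN, DES and CSPG4 kept their sign. The median of the PDGF list was 0.015 without P1 and 0.027 with the replicate block, against -0.073 with all CL, and those of the contractile (-0.045 to 0.04), SRF (-0.076 to 0.085), vascular tone (-0.039 to 0.132) and macrophage (-0.123 to 0.177) lists also turned sign with 1 CL left out. With MYLK summed with LOC100850955 it was -0.14. CL of both groups with the same number in their titles had correlations of 0.03, -0.05 and 0.01 in their deviations from the group means. So few values cannot settle whether the numbers mark a shared batch. With these numbers as a replicate block PDGFRB had 0.052 and DES 1.65, with no call. P5 and C3 have no partner of the same number, so the block fit took the difference from the other CL only. The log2 ratio of summed steroidogenic markers was 0.24, and 0.031 as a mean of log2 values. For the summed contractile genes of the main list it was 0.052, and 0.301 as a mean of log2 values. The log2 ratio of summed pericyte markers was -0.34, and -0.25 without ADAMTS1 and THY1. The cause of these changes was not tested, and 4 CL in a group limit what could be resolved.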

Other observations

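Genes of the lists with an unusual spread were looked for after the values were seen. ABCC9, which encodes the subunit that joins KCNJ8 in a potassium channel of pericytes, had 0.959, 133, 0.920 and 19.3 normalized counts in P1, P2, P4 and P5, against 50.002, 0.966, 71.2 and 29.4 in C1 to C4. Thus P1, P4 and C2 were at the smallest value of their CL, taken as 1 read, while KCNJ8 itself lay between 1305.5 and 1778 normalized counts in all 8 CL. RGS2, a regulator of G protein signaling that limits vasoconstriction, had 3477, 396, 11.0 and 1218 normalized counts in the CL of pregnancy, against 1.087, 775, 7.91 and 1090.3 in the CL of the estrous cycle. C1 was at its smallest value for RGS2, and the values of RGS2 did not follow the groups (log2 fold change 2.58, SE 2.25, limma adjusted p = 0.801). RGS5, of the same family, varied between 24616.5 and 36394 in the same CL.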
